A study of Mus musculus with 30 samples.

Results

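A set of 10 genes of the AP-1 family of transcription factors and its close relatives was followed through primary culture of mouse brain endothelial cells (ECs). They are the 4 Fos-family genes Fos, Fosb, Fosl1 and Fosl2, the 3 Jun-family genes Jun, Junb and Jund, and the 3 other leucine zipper genes Batf, Atf3 and Maff, chosen by name and making up 10 of the 21820 protein-coding genes in the files. All 10 were found in every RNA-seq library and all 10 passed the filter on low counts in each comparison.

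AP-1 factors bind DNA as pairs held together by a leucine zipper. Jun proteins pair with each other or with a Fos protein, whereas Fos proteins need a partner, and the pair recognizes the short sequence TGANTCA (N is any base) in enhancers and promoters. Atf3 and Batf can pair with Jun proteins, and Maff is a small Maf protein that lacks a transactivation domain and binds a longer, related sequence. Fos, Fosb, Jun, Junb and Atf3 are immediate early genes: they are transcribed within minutes of a growth factor, stress or tissue dissociation signal and their transcripts are short-lived, while Fosl1 and Fosl2 are known to respond later and for longer. In ECs, AP-1 factors are known for regulating genes of migration, inflammation and matrix turnover.

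RNA-seq was performed on 14 libraries. Acutely isolated ECs (2 libraries) were viable GFP-positive cells sorted from papain-dissociated brains of adult Tie2-GFP mice, which carry GFP under a promoter active in ECs, and 2 libraries of GFP-negative cells came from the same sorts. The deposited values of these 4 libraries combine cerebrum and cerebellum. WT cultures (6 libraries) were brain ECs grown for 8 days and purified with puromycin. Replicates 1 and 2 came from C57BL/6J mice by isolation method A (papain digestion), and replicates 3 to 6 from Ctnnb1flex3/+;Tie2-GFP mice, which lack Cre but had been given 4-hydroxytamoxifen (4HT) as pups, by method B (Dounce homogenization, then collagenase and dispase). Beta-catenin stabilized cultures (4 libraries) came from Ctnnb1flex3/+;Pdgfb-CreER;Tie2-GFP mice given 4HT in the same way, in which Cre acts in ECs to remove exon 3 of 1 Ctnnb1 allele, with replicates 1 and 2 by method A and replicates 3 and 4 by method B. All mice were adult males. Brains of several mice were pooled for each culture and the replicates are wells, 2 for each of 3 WT experiments. Between cultures, p-values thus measure mainly the spread between wells and between experiments. Against acutely isolated ECs they also rest on the spread between the 2 acutely isolated libraries, and against GFP-negative cells on 2 libraries in each group. ATAC-seq, which reads accessible chromatin, was available for 2 acutely isolated, 6 WT cultured and 2 stabilized cultured EC libraries, the last 2 by method B.

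Library totals ran from 24284843 to 94686456 counts. All 6 EC markers were detected in every group of ECs, with summed levels of 1662 to 1748 TPM (a transcript abundance corrected for effective length and depth) in acutely isolated ECs, 698 to 1912 TPM in WT cultures and 936 to 3261 TPM in stabilized cultures, against 4.44 to 17.0 TPM in GFP-negative cells. By the rule given below, 3 of the 6 EC markers were called lower and 0 higher in WT cultures than in acutely isolated ECs (median log2 fold change −1.92), beside 10.2% and 13.5% of all genes. In stabilized cultures 3 were called lower and 0 higher (median −1.31), beside 11.0% and 15.1%. Summed levels of the 5 pericyte markers were 248 to 358 TPM in acutely isolated ECs and 4.09 to 9.88 TPM in WT cultures, those of the 5 erythrocyte markers were at least 5448 TPM and at most 1.39 TPM, those of the 5 astrocyte markers were 87.2 to 466.5 TPM and 3.36 to 45.7 TPM, and those of the 5 smooth muscle markers were 216 to 236 TPM and 503 to 3073 TPM. Of the 5 smooth muscle markers, 3 were called higher and 1 lower in WT cultures, beside the same shares of all genes as for the EC markers. The part of these other cells in the AP-1 values was not tested, and in bulk RNA fewer cells of a type cannot be told apart from less RNA per cell. Acutely isolated cells were sequenced as single reads of 75 cycles and cultures as paired reads of 36 or 150 cycles, so that read format cannot be told apart from group in any comparison with acutely isolated ECs.

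Among the 10 genes, Maff was higher and Jun was lower in WT cultures than in acutely isolated ECs. Fosl1 was at most 0.0950 TPM in acutely isolated ECs and at least 2.61 TPM in every culture, and Fos, Fosb and Atf3 were high or low depending on the experiment. A gene was called changed when edgeR's quasi-likelihood test gave a Benjamini-Hochberg adjusted p under 0.05 over all protein-coding genes tested, the fold change exceeded 2, and the TPM was at least 5 in every library of the higher group. By this rule 1 of the 10 members was called higher and 1 lower in WT cultures, where 13.5% of 13785 genes tested were called higher and 10.2% lower. Over the 10 members the log2 fold change had a median of 0.77, and over all genes tested 0.10.

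**Figure D1:**
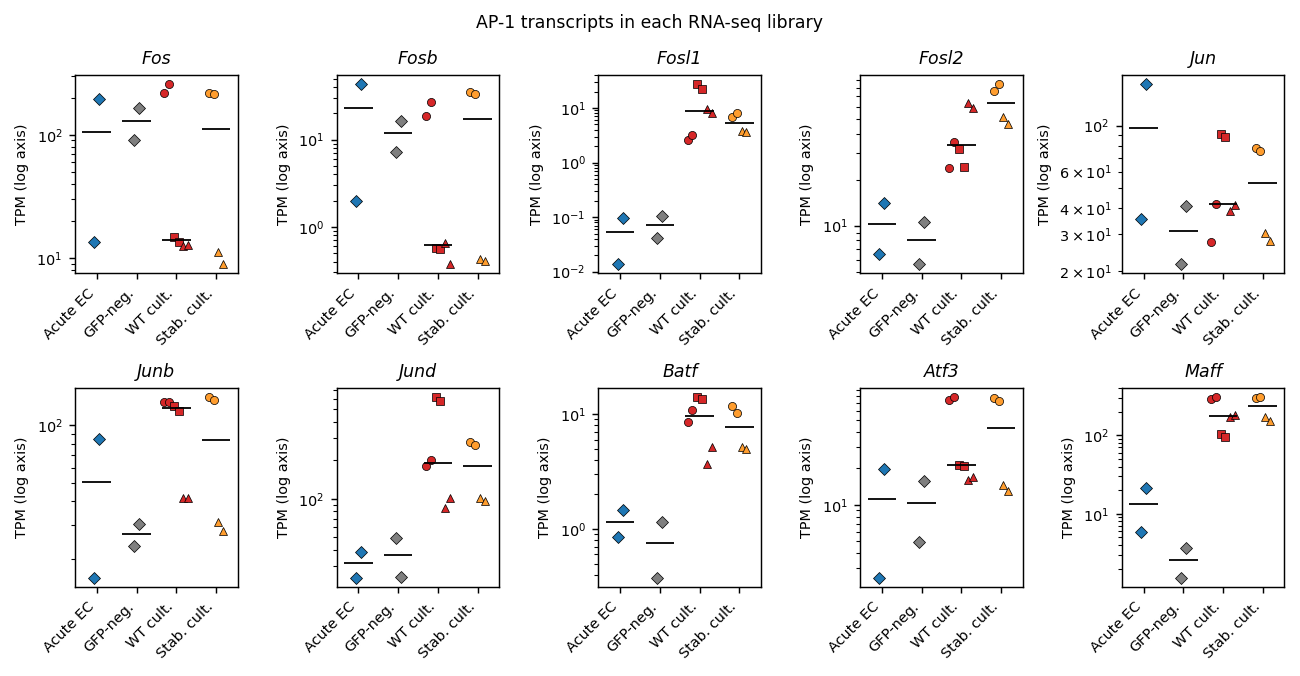
Levels of the 10 AP-1 genes in each RNA-seq library. The y axis of each panel is TPM on a log axis, each point is 1 library, and the black line is the group median; diamonds are sorted cells, circles method A cultures, squares method B cultures of 150 cycles and triangles method B cultures of 36 cycles. Fos in method A cultures sits between 213 and 260 TPM and in method B cultures between 8.95 and 14.9 TPM, while Maff lies above both acutely isolated EC libraries in all 10 cultures.

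Fos, the founding member of the family, had 13.4 and 196 TPM in the 2 libraries of acutely isolated ECs, and its lowest, median and highest values in WT cultures were 12.7, 14.2 and 260 TPM. Stabilized cultures had 218, 213, 11.2 and 8.95 TPM. The groups overlapped completely, because both acutely isolated ECs and cultures contained libraries near 200 TPM or above and libraries near 10 TPM. The fitted log2 fold change of WT culture over acutely isolated ECs was 0.13 ± 1.56 (SE, adjusted p = 0.951). Set against the same acutely isolated ECs, the method B cultures alone were lower in Fos (log2 fold change −2.88 ± 0.81, adjusted p = 0.0276), while the method A cultures alone had a value of 1.61 ± 0.97 that did not pass the test. The method B WT cultures had 12.7 to 14.9 TPM, on both sides of acutely isolated replicate 1 (13.4 TPM). Their difference from acutely isolated ECs thus rests on replicate 2 (196 TPM).

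Fosb, a close relative of Fos, followed the same libraries. It had 1.98 and 44.0 TPM in acutely isolated ECs, between 0.372 and 27.2 TPM with a median of 0.612 TPM in WT cultures, and 35.7, 33.8, 0.433 and 0.408 TPM in stabilized cultures. Only the 4 method A cultures exceeded 1 TPM among the 10 cultures. The log2 fold change in WT cultures was −2.73 ± 1.75 (edgeR adjusted p = 0.23).

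Fosl1, which encodes Fra-1, was the member nearest to zero in acutely isolated ECs, with 3 and 10 counts or 0.0136 and 0.0950 TPM. Its lowest, median and highest values in WT cultures were 2.61, 8.76 and 28.02 TPM, and stabilized cultures had 6.95, 8.20, 3.79 and 3.57 TPM. Every culture lay above both acutely isolated EC libraries and also above both GFP-negative libraries (0.0409 and 0.103 TPM). The mean of the WT cultures was 152 times the acutely isolated level in CPM (counts scaled to the library total), with a 95% Poisson interval of 88.6 to 285 that covers the error of counting 13 reads only. The log2 fold change was 6.92 ± 1.07 (edgeR adjusted p = 0.00123), but Fosl1 was below 5 TPM in 2 WT cultures and so was not called.

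Fosl2, which encodes Fra-2, had 6.49 and 13.97 TPM in acutely isolated ECs, and 23.9, 33.7 and 63.4 TPM as the lowest, median and highest WT culture. Stabilized cultures had 76.2, 84.9, 51.3 and 45.9 TPM. All 10 cultures were above both acutely isolated EC libraries. In counts the difference was called for stabilized cultures (log2 fold change 1.58 ± 0.21, edgeR adjusted p = 0.00119) and not for WT cultures (1.02 ± 0.75, adjusted p = 0.29). The difference between stabilized and WT cultures was 0.56 ± 0.49 and did not pass the test (adjusted p = 0.693).

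An accessible region with an AP-1 motif lay inside Fosl1, in an intron 1276 bases after the gene's start. It had a peak in all 6 WT cultures (fold enrichment over local background 5.53 to 10.2) and both stabilized cultures (6.35 and 7.94), 1 of the 2 acutely isolated EC libraries had a peak there (3.28) and the other had none past the filter. The sequence around its summit is given because it holds the only motif-bearing region of Fosl1 accessible in every culture. It is read from the plus strand of GRCm38 at chr19:5448748-5448898, with TGANTCA in capitals.
Fosl1 intron: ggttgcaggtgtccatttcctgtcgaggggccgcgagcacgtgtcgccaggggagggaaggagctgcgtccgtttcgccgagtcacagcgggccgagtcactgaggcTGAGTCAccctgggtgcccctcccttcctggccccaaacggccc

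Jun, the main transactivating partner of Fos proteins, was the member called lower. It had 254 and 1042 CPM in acutely isolated ECs and 111 to 152 in WT cultures, and stabilized cultures had 192, 164, 122 and 113. CPM values did not overlap between acutely isolated ECs and either set of cultures. The log2 fold change was −2.41 ± 0.40 in WT cultures (edgeR adjusted p = 0.00178), and it was −2.41 with method A cultures alone and −2.40 with method B cultures alone, each of which was called. Per length the separation was smaller: Jun had 35.5 and 159 TPM in acutely isolated ECs and 27.6, 41.9 and 91.5 TPM as the lowest, median and highest WT culture, so that TPM ranges overlapped. With an offset for effective transcript length the log2 fold change was −1.40 and Jun was still called lower.

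Junb, which often opposes Jun at shared targets, had 15.9 and 85.1 TPM in acutely isolated ECs and 41.3, 122 and 132 TPM as the lowest, median and highest WT culture. The ranges overlapped, and the log2 fold change of 0.51 ± 0.74 did not pass the test (edgeR adjusted p = 0.595).

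Jund, the Jun gene usually described as constitutively transcribed, had 24.3 and 38.7 TPM in acutely isolated ECs, and its lowest, median and highest values in WT cultures were 84.3, 190 and 623 TPM. Stabilized cultures had 280, 261, 101 and 96.7 TPM, and no culture overlapped with acutely isolated ECs. The mean TPM of WT cultures was 9.33 times that of acutely isolated ECs. Counts gave a different picture, with a log2 fold change of 0.22 ± 0.35 (edgeR adjusted p = 0.634). Salmon's effective length, by which counts are divided to give TPM, was 1326 and 1712 bases for Jund in acutely isolated ECs and 421 to 1071 bases in WT cultures. On the log2 scale its mean effective length was 0.91 lower in WT cultures, where the median protein-coding gene was 1.07 higher, and 0.329% of genes were lower than Jund. With the effective length as an offset, Jund was called higher (2.35 ± 0.54, adjusted p = 0.00721), so the call for Jund depends on that length.

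Atf3, a stress-induced gene whose product can repress or activate with Jun partners, had 2.50 and 20.0 TPM in acutely isolated ECs and 16.1, 21.2 and 78.2 TPM as the lowest, median and highest WT culture. Stabilized cultures had 76.1, 72.8, 14.5 and 12.9 TPM. The higher acutely isolated EC library exceeded 2 WT and 2 stabilized cultures. The log2 fold change in WT cultures was 1.88 ± 1.07 (edgeR adjusted p = 0.178), and it was 2.98 in method A cultures alone, which was called, against 0.67 in method B cultures alone, which was not.

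Batf, a partner of Jun proteins studied mainly in lymphocytes, was low throughout, with 0.854 and 1.45 TPM in acutely isolated ECs and 3.69, 9.65 and 14.1 TPM as the lowest, median and highest WT culture. Every culture was above both acutely isolated EC libraries. Its log2 fold change of 2.17 ± 0.46 had an adjusted p of 0.00557 (edgeR), but 1 WT culture was below 5 TPM and it was not called.

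Maff was the member called higher. Acutely isolated ECs had 5.79 and 21.1 TPM and GFP-negative cells 1.53 and 3.65 TPM. WT cultures had 95.7, 175 and 309 TPM as lowest, median and highest values, and stabilized cultures had 296, 306, 170 and 153 TPM. In TPM all 10 cultures lay far above the sorted cells, at a mean of 14.3 times the acutely isolated level in WT cultures and 17.2 times in stabilized cultures. In CPM the separation was smaller for WT cultures 3 and 4, with 92.4 and 89.4 against 20.5 and 63.6 in acutely isolated ECs. The other WT cultures had 384 to 745 CPM and stabilized cultures 389 to 423. The log2 fold change was 3.08 ± 1.01 in WT cultures (edgeR adjusted p = 0.0334). It was not called without acutely isolated replicate 1 (2.53, adjusted p = 0.189), without acutely isolated replicate 2 (3.88, adjusted p = 0.0816), without WT culture replicate 6 (3.04, adjusted p = 0.0504) or with method B cultures alone (2.50, adjusted p = 0.0762), and all of these values were positive.

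In all, Fosl1, Fosl2, Jund, Batf and Maff, 5 of the 10 members, had TPM values in every WT culture above both acutely isolated EC libraries, as did 35.5% of the 8508 genes with a mean of at least 5 TPM over these libraries. None of the members lay wholly below, as did 13.6% of those genes. The same 5 members lay above in stabilized cultures, as did 42.6% of genes in that comparison, which uses the same acutely isolated libraries. These counts hold for TPM. In CPM, Fosl1, Batf and Maff lay above in every WT culture, Fosl2 and Jund overlapped with acutely isolated ECs, and Jun lay wholly below.

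**Figure D2:**
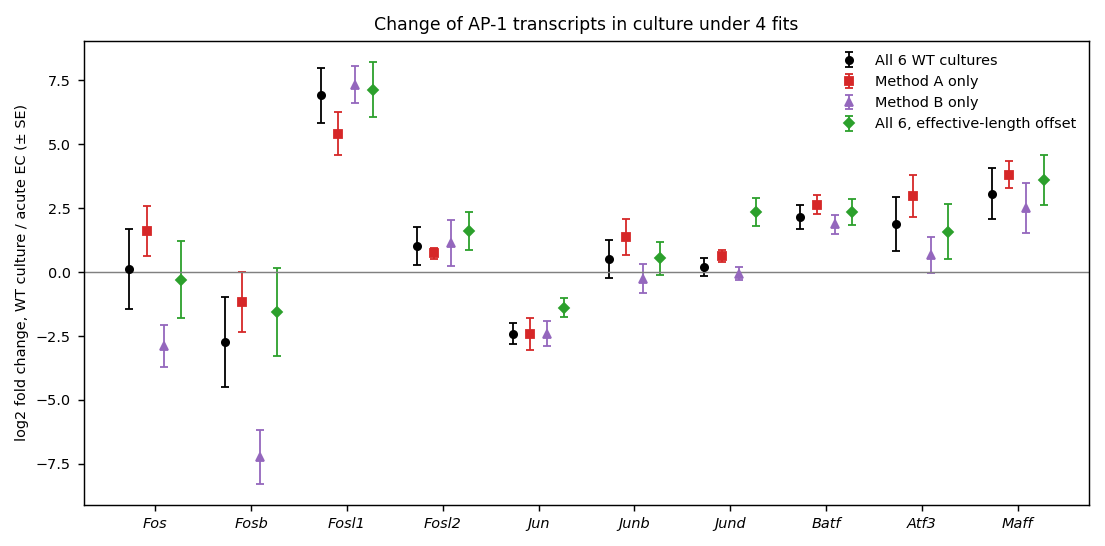
Log2 fold change of each AP-1 gene in WT culture over acutely isolated ECs, with SE bars, from edgeR. Black circles use all 6 WT cultures, red squares the 2 method A cultures, purple triangles the 4 method B cultures and green diamonds all 6 with an offset for effective length; all fits share the same 2 acutely isolated libraries. Jun is negative and Maff positive in all 4 fits, Fos is positive with method A and negative with method B, and Jund is at 0.22 with all 6 cultures and at 2.35 with the length offset.

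Stabilized cultures were set against the same acutely isolated ECs, so the values stand beside those of WT cultures and are not a second test. Of the 10 members, 2 were called higher and 1 lower, where 15.1% of 13889 genes tested were called higher and 11.0% lower. Those called were Fosl2, given above, Maff (log2 fold change 3.21 ± 0.42, edgeR adjusted p = 0.00111) and Jun (−2.19 ± 0.44, adjusted p = 0.00617). Fosl1 (6.38 ± 0.61) and Batf (2.11 ± 0.30) passed the p and fold thresholds but had libraries below 5 TPM.

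Between stabilized and WT cultures, none of the 10 members was called by edgeR, where 0.0% of 12959 genes tested were called in either direction. At an unadjusted p under 0.05 there were 1344 genes (10.4%) and 0 members, and DESeq2 called 15 genes higher and 3 lower, again with 0 members. Members' log2 fold changes ran from −0.57 (Fosl1) to 0.56 (Fosl2), and the smallest adjusted p was 0.642. The spread behind these values was large, as for Fos, whose log2 fold change of −0.21 had an SE of 1.24.

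The question of whether acutely isolated ECs differ from other brain cells in AP-1 transcripts was addressed by the sorted GFP-negative cells. Maff was called higher in ECs (log2 fold change 2.72 ± 0.68, edgeR adjusted p = 0.0298), 1 of 10 members, where 8.3% of 15101 genes tested were called higher and 7.56% lower. Jun had 35.5 and 159 TPM in ECs against 21.5 and 41.0 TPM in GFP-negative cells, with a log2 fold change of 2.04 ± 0.61 and an adjusted p of 0.0500148, just outside the threshold. Fos was abundant in GFP-negative cells too, with 90.5 and 166 TPM.

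Subunit composition was compared as the share of each gene in the summed TPM of its family. The families' totals were 21.9 and 254 TPM for Fos genes and 75.8 and 283 TPM for Jun genes in acutely isolated ECs. WT cultures had 60.2 to 325 TPM of Fos genes and 164 to 841 TPM of Jun genes, so that Fos-family transcripts made up 0.0768 to 0.868 of the Jun-family level in WT cultures and 0.289 and 0.897 in acutely isolated ECs.

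In acutely isolated ECs, Fos held 61.3% and 77.1% of the Fos-family TPM, and Fosl2 29.6% and 5.50%. In counts, which are not corrected for length, Fos held 21.7% and 37.9% there, Fosl2 63.4% and 16.7%, and Fosb 14.9% and 45.4%, so that the leading subunit of acutely isolated ECs depends on the length correction. With counts divided by annotated length, Fos held 45.5% and 60.8%, and Fosl2 39.7% and 7.58%. In the method A WT cultures Fos held 82.9% and 79.8%, and Fosl2 9.09% and 10.9%. In the 4 method B WT cultures Fos held 14.7% to 22.4%, Fosl2 40.1% to 73.5% and Fosl1 10.1% to 37.1%. Stabilized cultures split by method in the same way, with 64.7% and 62.7% Fos in method A and 16.7% and 15.2% in method B. Averaged over the WT cultures, the share of Fos was 39.3% ± 32.7 (SD, n = 6) against 69.2% ± 11.2 (n = 2), a difference that did not pass an exact permutation test (two-sided p = 0.429). In counts the mean shares were 27.6% and 29.8%, a difference of −2.22 points, and by annotated length the difference was −13.2 points. The share of Fosl1 was 16.1% ± 16.6 against 0.0498% ± 0.0175 (exact permutation p = 0.0714). Its mean share in cultures was 5.77% with 36-cycle cultures alone (exact permutation p = 0.133) and 6.72% in counts (exact permutation p = 0.143).

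Jun-family composition separated acutely isolated ECs from cultures under both methods. Jun held 46.9% and 56.3% of the Jun-family TPM in acutely isolated ECs and 8.11%, 11.3% and 23.6% as the lowest, median and highest share in WT cultures. Jund held 32.1% and 13.7% in acutely isolated ECs and between 51.3% and 74.2% in WT cultures. For both genes neither set of cultures overlapped with acutely isolated ECs, and in stabilized cultures Jun held 15.6% to 18.8% and Jund 55.3% to 63.4%. The difference in mean share was −36.9 points for Jun and 37.1 points for Jund, each with an exact two-sided permutation p of 0.0357, the smallest that 6 against 2 libraries allow, and 0.0833 after Benjamini-Hochberg adjustment over the 7 shares. With the mean of each experiment's wells as the unit (3 against 2), the exact permutation p was 0.1 for Jun and Jund, the smallest possible, and 0.2 for Fosb. Fosb, with 13.2% ± 5.89 against 3.06% ± 3.63 of the Fos-family total, had the same p of 0.0357 over libraries. Junb had nearly equal mean shares of 25.5% and 25.4%. With counts in place of TPM, Jun went from 71.4% of the Jun-family total to 31.5% and Jund went from 19.1% to 39.5%, again without overlap, and Junb went from 9.47% to 29.0%.

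**Figure D3:**
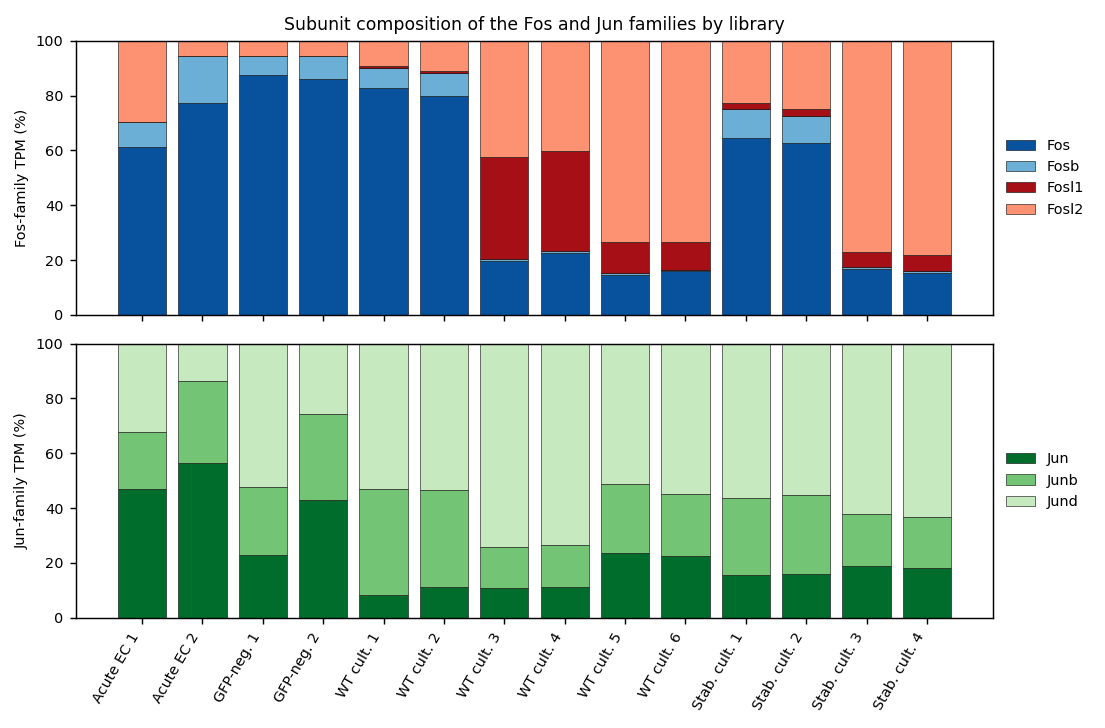
Subunit composition by library, as the percent of the summed TPM of Fos, Fosb, Fosl1 and Fosl2 (top) and of Jun, Junb and Jund (bottom). Each bar is 1 library and adds to 100%. Fos fills at least 61.3% of the upper bar in both acutely isolated EC libraries and in the 4 method A cultures (WT 1 and 2, stabilized 1 and 2) and at most 22.4% in the 6 method B cultures, whereas Jun (dark green) fills at least 46.9% of the lower bar in acutely isolated ECs and at most 23.6% in the 10 cultures.

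The experiments differed in all members. An F test over the 3 WT experiments passed an edgeR adjusted p under 0.05 for 10 of 10 members, where 89.8% of 13051 genes did. Wells were the replicates, so its p measures the spread between wells. Experiment could not be told apart from method, strain, read format or the facility that prepared the libraries. Method A and method B WT cultures of the same 36-cycle format differed in 9 of 10 members (69.5% of all genes), the exception being Jun, and stabilized cultures of both methods in 7 of 10 (61.7% of all genes). Those sets of wells also differ in experiment, and for WT cultures in mouse strain, from which method cannot be told apart. In WT cultures Fos was 18.8 times, Fosb 44.97 times and Atf3 4.58 times as high in TPM with method A as with method B, whereas 3.18% of all genes differed by more than 4-fold in this direction. In stabilized cultures the ratios were 21.4, 82.7 and 5.43, and that of Junb was 4.68, where 4.10% of genes exceeded 4.

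Fosl1 and Fosl2 went the other way in the 36-cycle WT cultures, at 0.329 and 0.487 times the level of method B cultures 5 and 6 with method A. The other method B experiment, WT cultures 3 and 4, was sequenced for 150 cycles and its libraries were prepared at another facility. Against it the TPM difference held for Fosl1 and not for Fosl2. Fosl1 had 2.88 ± 0.389 TPM (SD, n = 2) with method A and 25.02 ± 4.25 TPM in WT cultures 3 and 4, and Fosl2 had 29.7 ± 8.17 and 28.03 ± 5.52 TPM. In CPM, Fosl1 had 6.59 and 5.97 with method A and 21.2 and 21.1 in WT cultures 3 and 4. Fosl2 had 237 and 263 CPM with method A and 111 and 87.3 in WT cultures 3 and 4, so in CPM it was higher with method A. In stabilized cultures Fosl1 and Fosl2 were 2.06 and 1.66 times as high with method A in TPM, though their log2 fold changes in counts were 0.02 ± 0.09 and −0.22 ± 0.06. The difference between stabilized and WT cultures also varied between methods for 7 of 10 members (edgeR interaction test, adjusted p under 0.05), as for 49.6% of all genes. Each set of wells is 1 experiment, so that stabilization cannot be told apart from experiment in this test. For Fosl1 the log2 fold change of stabilized over WT culture was 0.92 with method A and −1.10 with method B 36-cycle cultures.

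The 2 libraries of acutely isolated ECs also differed. Replicate 2 was 14.6 times as high as replicate 1 in Fos, 22.3 times in Fosb, 7.97 times in Atf3, 5.34 times in Junb and 4.49 times in Jun, while the median protein-coding gene was 1.53 times as high and 7.13% of genes exceeded 4-fold. Fosl2, Jund, Batf and Maff differed by 1.59 to 3.64 times. Counts in Fosl1 were too few for a ratio.

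Over the 14 libraries, the genes whose log2(TPM + 1) was most like that of Fos were Fosb (Pearson r 0.978), Ccnl1 (0.969), Hnrnpdl (0.948), Phf20l1 (0.937) and Fam193b (0.930), chosen among genes with a mean of at least 5 TPM. For Fosl1 they were Mcu (0.988), Dapk3 (0.987), Rnf126 (0.987), Serpinb9b (0.986) and Gm20458 (0.986). These values are descriptions: the 14 libraries share experiments, depth and read format within groups.

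Other immediate early genes, which like Fos are transcribed on stimulation, were counted in the same way. Of 13 tested (14 listed), 0 were called higher and 5 lower in WT cultures than in acutely isolated ECs, beside 13.5% and 10.2% of all genes, with a median log2 fold change of −1.17 against 0.10 over all genes. In stabilized cultures 1 was called higher (Ier3, 1.01 ± 0.36) and 4 lower, beside 15.1% and 11.0% of all genes. The 3 called genes with the largest change in WT cultures were Nr4a2 (6.44 and 27.9 TPM in acutely isolated ECs against 0.316 to 1.001 in WT cultures, log2 fold change −5.23 ± 0.45), the orphan nuclear receptor Nr4a1 (40.9 and 138 TPM against 3.43 to 13.5, −3.69 ± 0.25) and Zfp36, whose product speeds the decay of short-lived transcripts (17.7 and 102 TPM against 7.44 to 21.8, −3.001 ± 0.40). Egr1, named after its values were seen, had 6.12 and 12.0 TPM in the method A WT cultures in which Fos exceeded 200 TPM, and 62.4 and 53.6 TPM in WT cultures 3 and 4, in which Fos was below 15 TPM. In the other cultures both genes were high or low together. Egr1 had 42.8 and 59.7 TPM in stabilized cultures 1 and 2, where Fos exceeded 200 TPM. It had 9.52 and 7.40 TPM in WT cultures 5 and 6 and 8.73 and 8.29 TPM in stabilized cultures 3 and 4, where Fos was below 15 TPM.

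Of the 21 other leucine zipper genes tested, 3 were called higher and 4 lower in WT cultures, beside 13.5% and 10.2% of all genes, with a median log2 fold change of −0.35. Among those called, the largest increases were those of the C/EBP factors Cebpb (0.179 and 0.151 TPM in acutely isolated ECs, 15.2 to 190 in WT cultures, log2 fold change 5.89 ± 0.58) and Cebpd (2.22 ± 0.51) and the small Maf gene Mafk (1.92 ± 0.43), a close relative of Maff. The largest called decreases were those of the CREB and ATF genes Atf7 (−2.24 ± 0.43), Creb1 (−1.80 ± 0.28) and Atf2 (−1.47 ± 0.26).

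Of the 21 kinases and regulators upstream of AP-1, 3 were called higher and 4 lower, again beside 13.5% and 10.2%, with a median of −0.18. Map2k1, which encodes the ERK kinase MEK1, rose from 4.25 and 8.10 TPM to between 42.5 and 117 TPM (log2 fold change 2.97 ± 0.40). Srf, which drives Fos transcription with ternary complex factors, rose by 2.16 ± 0.68 on the log2 scale, and Cops5 by 1.36 ± 0.36. Map3k1 (−4.69 ± 0.53) and the ternary complex factor genes Elk4 (−2.77 ± 0.47) and Elk3 (−2.06 ± 0.25) fell.

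In a list of genes known as AP-1 targets, more were called higher than lower. Of 24 tested (25 listed), 13 were called higher and 0 lower in WT cultures, beside 13.5% and 10.2% of all genes. In stabilized cultures 15 were called higher and 1 lower, beside 15.1% and 11.0%. Of those tested, 8 had no count in acutely isolated ECs. They passed the filter on low counts through the cultures alone and could only come out higher, so these counts are a description and not a test. The list was chosen with earlier results of these data known, and its members are targets of other factors as well. Its median log2 fold change in WT cultures was 6.50 as fitted and 5.25 when the 8 genes without a count in acutely isolated ECs were set to the bound that 3 counts over both libraries give. The chemokine gene Ccl2 had no count in acutely isolated ECs and 53.6 to 770 TPM in WT cultures, at least 10962-fold higher in CPM by that bound. Sphk1, which encodes a sphingosine kinase, was at 0 and 0.00236 TPM in acutely isolated ECs and at 9.84 to 32.9 TPM in WT cultures.

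The share of accessible regions that hold the AP-1 motif uses no transcript level. It counts sequence matches, and binding by AP-1 factors was not measured. Peaks past the filter used in the study's methods (fold enrichment over 2 and −log10 q over 2) numbered 37211 and 31601 in acutely isolated ECs, 33032 to 98603 in WT cultures and 79899 and 79004 in stabilized cultures. The motif TGANTCA, which reads the same on both strands, lay within 100 bases of the summit in 7.01% and 7.16% of peaks in acutely isolated ECs. In WT cultures the share was 22.8%, 25.0% and 29.4% as lowest, median and highest, and in stabilized cultures 26.7% and 26.9%. The groups were far apart, with means of 7.08% ± 0.104 (SD, n = 2) and 25.9% ± 2.64 (n = 6) and an exact two-sided permutation p of 0.0357, the smallest possible here. Windows 1000 bases away from the summits held the motif in 5.50% to 5.80% of cases in every library. WT culture 2, with 33032 peaks, was close to acutely isolated ECs in number of peaks and had the motif in 22.8% of them. The full CRE sequence TGACGTCA, which ATF and CREB proteins bind, was within 100 bases of 1.59% ± 0.167 of summits in acutely isolated ECs and 1.09% ± 0.259 in WT cultures (exact permutation p = 0.0714).

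**Figure D4:**
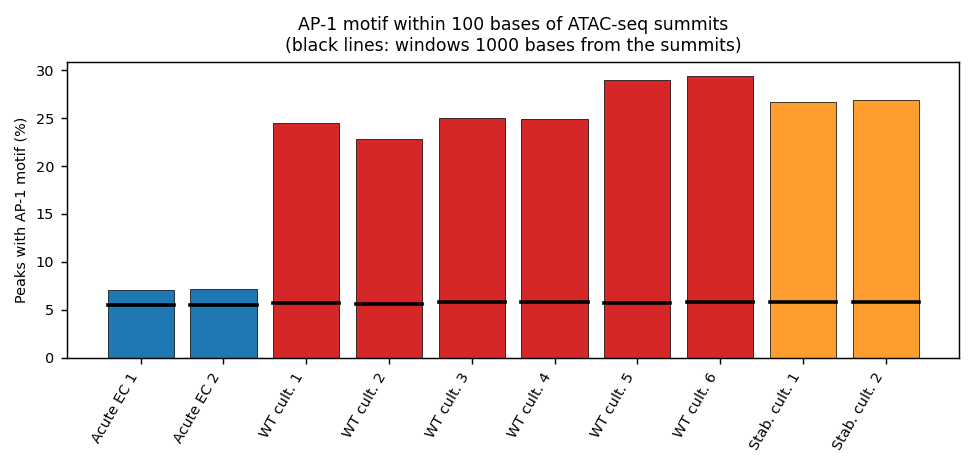
Percent of ATAC-seq peaks with TGANTCA within 100 bases of the summit, by library. Bars are acutely isolated ECs (blue), WT cultures (red) and stabilized cultures (orange), and black lines give the percent in windows 1000 bases away. Acutely isolated ECs are at 7.01% and 7.16% and all 8 cultures at 22.8% or more, while the black lines stay between 5.50% and 5.80%.

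Of the 10209 regions accessible in all 6 WT cultures and in neither acutely isolated library, 49.4% held the motif. The share was 11.0% of the 16918 regions accessible in all 8 libraries and 3.57% of the 3673 accessible in both acutely isolated libraries and in no WT culture, with 5.41% to 6.39% in the windows 1000 bases away.

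The AP-1 genes themselves were accessible before and after culture. For 8 of the 10 members a peak lay within 500 bases of the start in all 10 ATAC-seq libraries, as did 44.6% of 21807 gene starts, while 47.5% to 58.0% of starts had a peak in a given library. The exceptions were Fosl1, with no peak in WT culture 2 (the library with the fewest peaks among cultures), and Batf, with no peak in either acutely isolated library or in WT culture 2. Fold enrichment at the Fos start was 8.96 and 7.77 in acutely isolated ECs and 5.88 to 10.8 in WT cultures, and at the Maff start it was 9.16 and 9.41 against 5.61 to 11.8, so that the ranges overlapped at both.

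RefSeq promoters (GRCm38.p6) were matched for 9 of the 10 members, all except Fosl1. In the 250 bases before the RefSeq start, TGANTCA was found for none of the 9 (6.75% of 32851 promoters of this length hold it). For Jund and Fosl2 the RefSeq start is not the start used for peaks. The Jund window ends at chr8:70697738, well before that start at 70698949. The Fosl2 window, chr5:32136222-32136471, lies after that start at 32135801. The bases just before those starts of Jund and Fosl2 were not searched. TGACGT or its reverse complement ACGTCA, the core of a CRE, was found for Atf3, Batf, Fos and 1 of the 3 Maff starts (6.47% of promoters), and the full TGACGTCA for Maff alone (1.55%). A match is a description of letters and not a site in use. The windows of Fos, Atf3 and Maff are given as examples that hold a match, chosen after values were seen, with the match in capitals. Fos is from the plus strand at chr12:85473640-85473889, Atf3 from the minus strand at chr1:191183334-191183583 and Maff from the plus strand at chr15:79347270-79347519.
Fos promoter: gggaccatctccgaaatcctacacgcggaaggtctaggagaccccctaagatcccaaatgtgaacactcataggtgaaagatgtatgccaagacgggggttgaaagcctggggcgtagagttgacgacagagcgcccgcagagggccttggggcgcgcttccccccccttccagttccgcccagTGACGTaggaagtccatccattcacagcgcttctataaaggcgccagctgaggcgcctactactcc
Atf3 promoter: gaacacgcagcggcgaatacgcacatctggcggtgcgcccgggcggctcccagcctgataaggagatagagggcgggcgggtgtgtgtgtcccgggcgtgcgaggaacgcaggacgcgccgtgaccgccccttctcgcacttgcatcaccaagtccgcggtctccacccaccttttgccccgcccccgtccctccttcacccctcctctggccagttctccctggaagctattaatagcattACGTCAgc
Maff promoter: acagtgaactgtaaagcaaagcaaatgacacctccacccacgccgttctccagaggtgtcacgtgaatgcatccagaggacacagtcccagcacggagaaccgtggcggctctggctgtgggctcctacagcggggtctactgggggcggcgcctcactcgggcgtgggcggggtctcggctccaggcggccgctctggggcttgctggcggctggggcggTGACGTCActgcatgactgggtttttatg

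Within 20 kb of the 10 genes there were 106 accessible regions in the acutely isolated and WT culture libraries together. Of these, 37 were accessible in all 8 libraries, and 6 in all WT cultures and in neither acutely isolated library. The 6 lay at Atf3 (4), Fos (1) and Maff (1), so that 3 of the 10 members had such a region, as did 29.9% of all genes. The 4 at Atf3 were more than most genes had, since 1.8% of genes had 4 or more, though Atf3 is a long gene and offers a wide window. All 4 held TGANTCA, and neither the region at Fos nor that at Maff did.

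At Atf3 (chr1:191170296-191218039, minus strand), 2 of the 4 regions lay in an intron behind an alternative first exon, at −10605 and −32941 bases from the main start. The annotated transcript with that exon, Atf3-203, had 0 TPM in every RNA-seq library, and both regions lie upstream of the main start. Another was intergenic, at −38896 bases, and the last was intergenic beyond the gene's 3′ end, 28791 bases after the start. Fold enrichment in WT cultures was 7.67 to 20.7 and 6.25 to 20.7 at the intronic regions, 5.57 to 10.6 at the upstream one and 9.19 to 20.3 at the downstream one. Both stabilized cultures had a peak at all 4, and both method A WT cultures did as well. At the main Atf3 start, by contrast, fold enrichment was 13.0 and 12.1 in acutely isolated ECs and 9.07 to 12.5 in WT cultures. The sequence around each summit is given from the plus strand of GRCm38, with TGANTCA in capitals, because these are the motif-bearing regions near an AP-1 gene with a peak in all 8 cultures and in neither acutely isolated library. Their positions are chr1:191154474-191154624 (downstream), chr1:191193870-191194020 (intron, −10605), chr1:191216206-191216356 (intron, −32941) and chr1:191222161-191222311 (upstream).
Atf3 downstream: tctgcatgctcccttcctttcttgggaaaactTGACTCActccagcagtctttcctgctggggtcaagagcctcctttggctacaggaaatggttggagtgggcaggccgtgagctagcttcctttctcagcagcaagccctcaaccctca
Atf3 intron near: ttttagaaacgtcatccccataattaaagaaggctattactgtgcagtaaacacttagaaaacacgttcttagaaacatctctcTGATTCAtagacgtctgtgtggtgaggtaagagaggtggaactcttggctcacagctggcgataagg
Atf3 intron far: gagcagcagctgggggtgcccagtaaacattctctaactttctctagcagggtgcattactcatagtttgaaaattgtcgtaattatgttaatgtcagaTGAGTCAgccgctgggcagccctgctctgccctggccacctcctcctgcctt
Atf3 upstream: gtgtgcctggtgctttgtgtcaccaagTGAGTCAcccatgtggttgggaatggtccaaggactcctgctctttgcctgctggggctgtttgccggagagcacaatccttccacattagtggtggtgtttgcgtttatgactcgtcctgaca

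**Figure D5:**
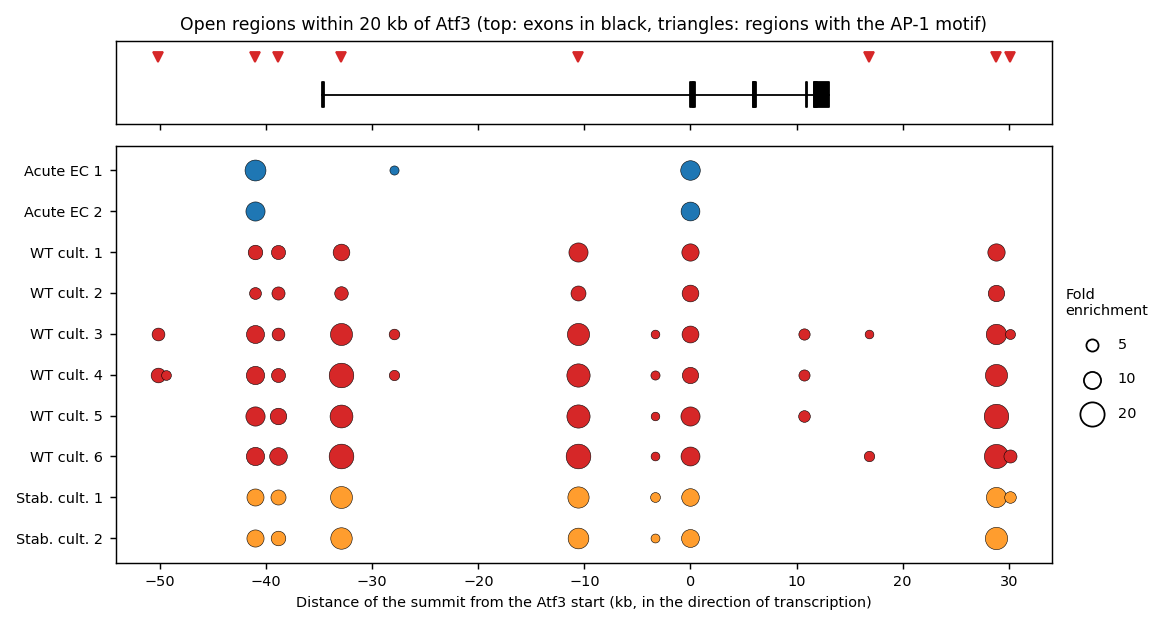
Accessible regions within 20 kb of Atf3 by ATAC-seq library. The x axis is the distance of the summit from the main Atf3 start in kb along the direction of transcription, circle area is fold enrichment, black boxes are exons and red triangles mark regions with TGANTCA. Peaks at the start are present in all 10 libraries, while 4 motif-bearing regions, at −38896, −32941, −10605 and 28791 bases, have a peak in all 8 cultures and in neither acutely isolated library.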

How the data were processed

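RNA-seq and ATAC-seq of acutely isolated and cultured mouse brain ECs were analysed from the deposited tables. The authors quantified RNA-seq reads with Salmon 0.14.0 on GENCODE M21 transcripts with sequence, GC and position bias models, and the deposited values are estimated counts, TPM and effective lengths for 140198 transcripts in each of 14 libraries. For ATAC-seq, reads were aligned by the authors to GRCm38 (HISAT2 2.1.0), duplicates were taken out and MACS2 2.1.2 was run on every library separately. The deposited peak lists give a score, a fold enrichment (a ratio to the local background), a −log10 p and a −log10 q for each peak, and the peak score and −log10 p were not used. Peaks with fold enrichment over 2 and −log10 q over 2 were kept, as in the authors' methods.

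Counts and TPM were summed per gene symbol. Counts were rounded and tested with edgeR 4.0.16 (filterByExpr, TMM, quasi-likelihood), with Benjamini-Hochberg adjustment over all protein-coding genes tested. The threshold was an adjusted p under 0.05 with a log2 fold change beyond 1 and at least 5 TPM in each library of the higher group, after the study's rule. The study used another tool that was not available here. DESeq2 1.42.0 was an alternative. Shares and motif percentages were compared by exact permutation tests. The scripts were tested on simulated counts. Motifs were searched in the GRCm38 sequence. Depth was 24284843 to 94686456 counts per library, and intervals on counts cover counting error only.

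Groups came from sample titles, genotypes and cell types. Isolation method and read length came from the Methods, and a figure legend that assigns method A more widely was not followed. For stabilized replicate 4 of RNA-seq the labels name a molecule other than RNA, and its title was followed. In 6 samples no file was at hand, and they were not analysed here. The 10 genes and the other lists were chosen with earlier results of these data known. Named genes were all 10 members, the 3 called genes of each other list with the largest change in each direction in WT cultures, and the 5 genes most correlated with Fos and with Fosl1. One gene under this rule is not reported here. Alternatives covered scaling, filters, DESeq2, effective length, left-out libraries, summed wells, replicate block, read length and isolation method. Method-specific fits of stabilized cultures and of shares, and shares by annotated length or protein-coding transcripts, were added after seeing the data.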

Additional observations from a re-analysis of the deposited data

Results flagged for a closer look

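For 7 of the 10 AP-1 genes the difference between beta-catenin stabilized and WT cultures was not the same in method B and method A cultures of the 36-cycle format. The rule was edgeR's test of the interaction with adjusted p under 0.05, which 49.6% of 13357 genes passed. Each value is the log2 fold change of stabilized over WT culture in method B minus that in method A, with 2 wells in each of the 4 sets. It was −1.99 ± 0.17 for Fosl1 (SE, adjusted p = 0.000108), −0.87 ± 0.11 for Fosl2 and −0.72 ± 0.15 for Jun. It was 0.84 ± 0.20 for Batf, 0.70 ± 0.13 for Maff, 0.61 ± 0.14 for Fos and 0.52 ± 0.12 for Atf3. Fosl1 thus had a log2 fold change of stabilized over WT culture of 0.92 with method A and −1.10 with method B. Each set is 1 experiment, so that neither method nor stabilization can be told apart from experiment, and the test measures the spread between wells. WT mice of the methods also differ in strain. Of 35 groups of library values examined for a single library far from the others, 0 had one. The groups were WT and stabilized cultures, whose wells come as 2 of each experiment. An experiment far from the others would therefore not be flagged. Acutely isolated ECs, with 2 libraries, were not examined.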

How the results depend on the processing

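In WT culture against acutely isolated ECs, the count of members called higher (1) was 2 with 36-cycle cultures alone, 3 with method A cultures alone, 3 without the TPM minimum, 2 with the length offset and 5 with the replicate block, and the count called lower (1) was 2 with method B cultures alone. For stabilized cultures the count called higher (2) was 4 with method A alone, 4 without the TPM minimum and 7 with the block, and the count called lower was 0 with method A alone (Jun −1.97, adjusted p = 0.075). Stabilized against WT cultures gave 1 lower (Fosl1) with method B 36-cycle cultures alone, and acutely isolated ECs against GFP-negative cells gave 2 higher by DESeq2, 2 without the count filter, 2 with the block and 0 with the length offset. Same-numbered libraries of stabilized and WT cultures had correlated deviations of 0.48, 0.52, 0.006 and 0.09, where differently numbered method A libraries had 0.42 and 0.56. The numbers thus do not pair these cultures. For the sorted cells the value was 0.07, but 2 pairs can neither show nor exclude pairing. ECs and GFP-negative cells came from the same sorts, and their main test took no account of pairs. Calls under the block say nothing of the size of an effect. The counts of members under these alternatives are given without the share of all genes called under each. A change in such a count therefore cannot be read as particular to the members.

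Leaving out 1 library at a time gave 0 to 2 called higher and 1 called lower in WT cultures, 2 to 3 and 1 in stabilized cultures, and 0 between cultures. Beside the losses of Maff given above, Batf was called without WT culture replicate 5 (2.24) and without stabilized replicate 4 (2.11), and Atf3 in stabilized cultures without acutely isolated replicate 2 (3.40). Share differences then ran from −38.7 to −25.1 points for Fos, −11.2 to −9.60 for Fosb, 11.9 to 19.1 for Fosl1, 17.6 to 30.5 for Fosl2, −38.7 to −35.6 for Jun, −2.90 to 1.89 for Junb and 34.3 to 38.9 for Jund, and the motif difference from 18.2 to 19.5 points. With the mean of the wells of each experiment as the unit the motif difference was 18.8 points with an exact permutation p of 0.1, the smallest that 3 against 2 allow. The Fos share difference was 12.1 points and that of Fosl2 −7.56 points with method A alone, and that of Junb was 19.6 points in counts, 18.6 by annotated length, 4.94 in 36-cycle cultures and 11.5 with method A alone.

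Single members changed sign as follows, none of them called in the main comparison. In WT cultures Fos was −0.29 with the length offset and −2.88 with method B alone, Junb −0.26 and Jund −0.055 with method B alone. In stabilized cultures Fos was 1.498 with the block and 0.79 with method A, and Junb −0.38 with method B. Between cultures Fos was 0.069 and Atf3 0.094 with the block. Fosb was −0.095 and Maff −0.33 with method as covariate, and with method A alone Fosb was −0.25, Fosl1 0.92 and Maff −0.67. With method B 36-cycle cultures Fosl2 was −0.20, Jun −0.32 and Batf 0.30, and with the length offset Jun was −0.020 and Jund −0.49. Against GFP-negative cells Jund was −0.17 with the length offset, and Atf3 −0.013 with RLE factors, −0.26 by library size, −0.021 without the filter, −0.013 by DESeq2 and −0.15 with the block. On leaving out 1 library, values in WT cultures ran from −0.72 to 2.38 for Fos, −3.65 to 0.25 for Fosb and −0.21 to 1.93 for Junb, and in stabilized cultures from −0.91 to 2.22, −3.27 to 0.65 and −0.21 to 1.95. Between cultures they ran from −0.78 to 0.44 for Fos, −0.38 to 1.17 for Fosb, −0.35 to 0.27 for Junb, −0.20 to 0.050 for Batf, −0.40 to 0.34 for Atf3 and −0.10 to 0.38 for Maff. The cause of these changes was not tested. Jun was called lower in WT cultures under all alternatives run. With 2 acutely isolated libraries that differ 14.6-fold in Fos, the SE of its log2 fold change was 1.56.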
